A study of Mus musculus with 21 samples.

Results

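The expression of 10 genes used to describe venous, lymphatic and sinusoidal endothelium was followed in RNA-seq libraries from a mouse hematopoietic induction system. The members were the rows whose symbol was Nr2f2, Aplnr, Apln, Emcn, Lyve1, Stab1, Stab2, Prox1, Mrc1 or Pdpn. All 10 were found once among the 27968 genes of the sorted-cell table and once among the 22899 genes of the coculture table. The 21 libraries formed 7 groups with 3 replicates each, and expression was given as FPKM, a fragment count scaled by transcript length and by the size of the library.

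Total cells of the 129/ola strain were collected on day 5 from 2 cultures. In both, hematopoietic-like colonies were raised from mouse PSCs (pluripotent stem cells) as embryoid bodies in a 3D self-assembling peptide and were then picked and re-seeded, either on mitomycin C-treated OP9 stromal cells (3D+OP9) or on gelatin without stroma (3D+0.1% gelatin). SCF, IL-3 and Flt3 ligand were part of the OP9 coculture medium. D5-LSKCD201+ and D5-LSKCD201- cells were sorted from the 3D+OP9 culture on day 5 and were also 129/ola. LSK stands for Lineage-negative, Sca-1-positive and c-kit-positive cells, and CD201 is the endothelial protein C receptor, a surface protein found on hematopoietic stem cells and on endothelium. The undifferentiated mouse PSCs (mESC, 129/ola) were sorted by SSEA-1. The in vivo groups were BM-LSKCD201+ from the bone marrow of 6 to 8 week old C57BL/6 mice, and FL-LSKCD201+, taken at E12.5 from the fetal liver of C57BL/6 embryos. Strain and in vivo origin go together, so for D5 cells against FL or BM cells they cannot be told apart. OP9 cells were present in the 3D+OP9 culture, and their RNA could not be separated from that of the induced cells. In these bulk libraries, fewer cells of a type and less RNA per cell cannot be told apart either. The study calls the replicates of the sorted groups biological replicates, and separate cultures, animals or litters are not named for each library, so the p-values measure the spread between these libraries.

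Endothelial cells take on arterial, venous, lymphatic or sinusoidal identities. Nr2f2 (COUP-TFII) is a nuclear receptor that maintains venous identity and acts upstream of Prox1, the transcription factor that commits venous cells to the lymphatic fate. Apelin (Apln) is a secreted peptide, and the G protein-coupled receptor Aplnr on developing veins and sprouting vessels binds it. Endomucin (Emcn) is a sialomucin of venous and capillary endothelium and is also used as a surface marker of hematopoietic stem cells. Lyve1 is a hyaluronan receptor of lymphatic and liver sinusoidal endothelium. Stabilin-1 and stabilin-2 (Stab1, Stab2) are scavenger receptors of sinusoidal endothelium. Mrc1 (CD206) is the mannose receptor, found on sinusoidal and lymphatic endothelium and on tissue macrophages, which also use Lyve1 and Stab1. Podoplanin (Pdpn) is a mucin-type glycoprotein of lymphatic endothelium that many epithelial, stromal and embryonic cells make too.

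In the GENCODE M21 annotation of GRCm38, all 10 members were protein-coding genes on 8 chromosomes. They lay at chr7:70351944-70366735 (Nr2f2, ENSMUSG00000030551), chr2:85136225-85139923 (Aplnr, ENSMUSG00000044338), chrX:48025146-48034853 (Apln, ENSMUSG00000037010) and chr3:137341067-137432185 (Emcn, ENSMUSG00000054690). The scavenger and hyaluronan receptor genes lay at chr7:110850607-110863239 (Lyve1, ENSMUSG00000030787), chr14:31139013-31168641 (Stab1, ENSMUSG00000042286), chr10:86841198-87008025 (Stab2, ENSMUSG00000035459) and chr2:14229392-14332057 (Mrc1, ENSMUSG00000026712). Prox1 lay at chr1:190118035-190170714 (ENSMUSG00000010175) and Pdpn at chr4:143267431-143299564 (ENSMUSG00000028583). Aplnr, Emcn and Mrc1 are on the plus strand and the others on the minus strand. Annotated genes on the opposite strand overlap Nr2f2, Stab1, Stab2 and Prox1, and whether reads were counted by strand is not given in the sources used here. Of these overlapping genes, Nt5dc2 beside Stab1 was abundant, at 163 ± 36.1 FPKM (SD, n = 3) in D5-LSKCD201+ cells and 146 ± 44.6 in D5-LSKCD201- cells. Its level was 227 ± 18.0 FPKM in mESC, 159 ± 19.6 in FL-LSKCD201+ and 22.6 ± 4.36 in BM-LSKCD201+ cells. The antisense gene B130024G19Rik at Nr2f2 had 0.271 ± 0.120 FPKM in D5-LSKCD201+ cells and at most 0.0183 in the mean of any other sorted group.

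Promoter sequences were given for 8 of the 10 members by RefSeq on GRCm38.p6, with 2 for Prox1, and were not given for Lyve1 and Aplnr. The 250 bases upstream of the start are printed 5′ to 3′ on the gene's strand for 5 members that were higher in D5-LSKCD201+ than in D5-LSKCD201- cells and for Pdpn, the member that was lower. Capitals mark matches, on either strand, to the core letters of motifs for 3 families of endothelial and blood transcription factors. For the ETS family the letters searched were AGGAAG and their reverse complement. For the GATA family they were AGATAA, and for the SOX family ACAAT, each likewise with the reverse complement. A match is a description of the letters in the window.
Emcn (chr3:137340828-137341077, plus strand): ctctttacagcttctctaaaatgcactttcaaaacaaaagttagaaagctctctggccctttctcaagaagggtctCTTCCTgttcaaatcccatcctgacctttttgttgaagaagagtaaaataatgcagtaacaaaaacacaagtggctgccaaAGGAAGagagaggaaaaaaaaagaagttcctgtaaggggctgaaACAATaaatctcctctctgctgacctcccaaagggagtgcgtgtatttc
Mrc1 (chr2:14229164-14229413, plus strand): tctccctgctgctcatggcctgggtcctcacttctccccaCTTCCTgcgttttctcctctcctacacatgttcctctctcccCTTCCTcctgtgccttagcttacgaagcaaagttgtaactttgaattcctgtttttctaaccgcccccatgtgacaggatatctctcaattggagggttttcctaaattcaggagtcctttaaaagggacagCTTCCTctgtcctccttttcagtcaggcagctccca
Stab1 (chr14:31168642-31168891, minus strand): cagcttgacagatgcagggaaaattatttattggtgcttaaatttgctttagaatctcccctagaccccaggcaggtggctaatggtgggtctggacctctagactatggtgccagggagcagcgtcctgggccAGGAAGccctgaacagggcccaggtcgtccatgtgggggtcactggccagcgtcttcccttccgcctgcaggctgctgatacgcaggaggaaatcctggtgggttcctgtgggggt
Stab2 (chr10:87007943-87008192, minus strand): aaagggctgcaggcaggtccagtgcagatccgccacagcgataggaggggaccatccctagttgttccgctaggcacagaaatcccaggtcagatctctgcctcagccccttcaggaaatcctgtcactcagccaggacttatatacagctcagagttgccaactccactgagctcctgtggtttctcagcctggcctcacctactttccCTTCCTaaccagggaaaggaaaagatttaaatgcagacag
Nr2f2 (chr7:70366747-70366996, minus strand): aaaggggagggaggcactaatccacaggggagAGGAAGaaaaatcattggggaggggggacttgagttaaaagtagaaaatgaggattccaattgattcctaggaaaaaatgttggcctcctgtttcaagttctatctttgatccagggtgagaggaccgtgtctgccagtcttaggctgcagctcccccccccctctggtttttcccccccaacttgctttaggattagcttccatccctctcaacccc
Pdpn (chr4:143299565-143299814, minus strand): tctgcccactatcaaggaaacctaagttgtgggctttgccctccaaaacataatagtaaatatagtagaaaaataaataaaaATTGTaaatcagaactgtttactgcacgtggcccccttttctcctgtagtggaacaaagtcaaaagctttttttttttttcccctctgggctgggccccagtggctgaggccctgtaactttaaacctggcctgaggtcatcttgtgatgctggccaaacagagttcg

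The Mrc1 window held 3 ETS matches and the Emcn window 2. Stab1, Stab2, Nr2f2 and Apln held 1 each, while the Pdpn window and both Prox1 windows held 0. Among all 32851 windows of this length in the RefSeq table, 29.5% held an ETS match. A SOX match was found once in Emcn and once in Pdpn, against 27.7% of all windows. None of the 9 member windows held the GATA letters, which 9.99% of all windows held.

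Sorted D5-LSKCD201+ cells carried the highest level of 7 of the 10 members among the 5 sorted groups, led by Emcn, Aplnr, Mrc1 and Stab1. Their summed FPKM over the members was 328 to 332 in the 3 libraries. It was 40.6 to 46.6 in D5-LSKCD201- cells, 33.3 to 36.6 in FL-LSKCD201+, 32.2 to 34.3 in BM-LSKCD201+ and 8.51 to 10.01 in mESC. Apln and Pdpn followed other patterns, and Prox1 was low throughout. Before these levels were compared, replicates were compared with each other: the SD of the log2 difference between libraries of one group was 0.138 to 0.453, and one library of the 3D+OP9 (replicate 3), D5-LSKCD201- (replicate 2), FL (replicate 1) and BM (replicate 1) groups stood apart from a closer pair. Results that change without such a library are given with it and without it.

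**Figure D1:**
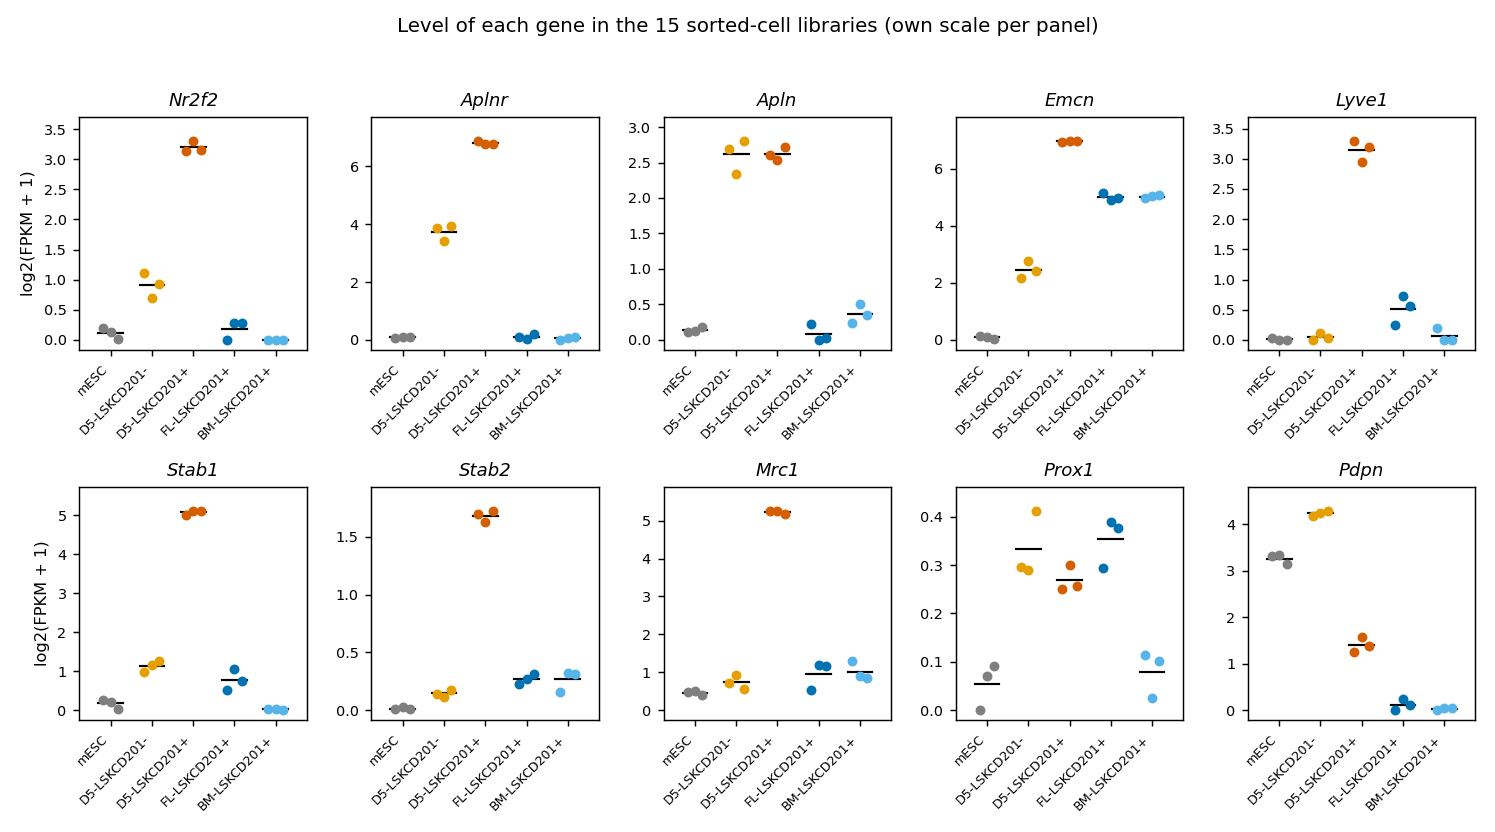
Levels of the 10 members in the 15 sorted-cell libraries, 1 panel per gene. The vertical axis is log2(FPKM + 1), each panel has its own scale, points are libraries in the order of replicate number and lines are means of 3 libraries. D5-LSKCD201+ points lie highest for Nr2f2, Aplnr, Emcn, Lyve1, Stab1, Stab2 and Mrc1, overlap D5-LSKCD201- for Apln and lie below D5-LSKCD201- and mESC for Pdpn.

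To ask how the CD201+ cells of the culture differed from the CD201- cells sorted beside them, each gene was compared by a two-sided limma fit on log2(FPKM + 1), and a gene was called at a Benjamini-Hochberg adjusted p under 0.05 with a log2 fold change of 1 or more in either direction. Of all 13691 genes tested between D5-LSKCD201+ and D5-LSKCD201- cells, 24.7% were called and 10.8% were called higher. Of the 9 members tested, 7 were higher (Nr2f2, Aplnr, Emcn, Lyve1, Stab1, Stab2 and Mrc1), Pdpn was lower and Apln was not called. The median log2 fold change of the 9 was 3.06, beside -0.12 over all genes. Lyve1 and Stab2 passed the filter on low values (a mean of 0.5 FPKM) only through their level in D5-LSKCD201+ cells. The filter thus set the direction of their difference.

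Nr2f2, the venous regulator, had 7.76, 8.88 and 7.91 FPKM in the D5-LSKCD201+ libraries. It had 1.16, 0.612 and 0.897 FPKM in the D5-LSKCD201- libraries, and the groups did not overlap. On the log2(FPKM + 1) scale the difference was 2.29 ± 0.13 (SE, adjusted p = 5.6e-06), and the means differed 9.19-fold. In mESC the gene stood at 0.152, 0.0900 and 0.0162 FPKM and in FL-LSKCD201+ at 0, 0.219 and 0.214, with overlap between these groups. All 3 BM-LSKCD201+ libraries listed Nr2f2 at 0.

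Aplnr, the apelin receptor, was the second most abundant member in D5-LSKCD201+ cells, with 117, 109 and 107 FPKM. D5-LSKCD201- cells had 13.7, 9.72 and 14.4 FPKM, a difference of 3.06 ± 0.14 (SE, log2, adjusted p = 1.8e-06) and an 8.81-fold ratio of means. No library of mESC, FL-LSKCD201+ or BM-LSKCD201+ exceeded 0.160 FPKM, and these groups overlapped one another. Among the 5 sorted groups, levels above 1 FPKM were seen in the day 5 cells only.

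Apln, the ligand of this receptor, did not follow it. Levels were 5.09, 4.80 and 5.56 FPKM in D5-LSKCD201+ cells and 5.48, 4.07 and 5.99 FPKM in D5-LSKCD201- cells, with full overlap. The fitted difference was 0.00 ± 0.14 (SE, log2, adjusted p = 0.985), with a 95% interval from -0.32 to 0.33. Both day 5 groups were above mESC (0.101 ± 0.0269), FL-LSKCD201+ (0.0600 ± 0.0896) and BM-LSKCD201+ (0.291 ± 0.119; mean ± SD, n = 3). Against mESC the difference was 2.48 in the CD201+ cells (limma adjusted p = 5.4e-09) and 2.48 in the CD201- cells (limma adjusted p = 7.9e-06).

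Emcn had the highest level of the set, at 121, 126 and 125 FPKM in D5-LSKCD201+ cells. In D5-LSKCD201- cells it was 3.46, 5.85 and 4.4 FPKM, a difference of 4.51 ± 0.15 (SE, log2, adjusted p = 4.2e-07) and a 27.1-fold ratio of means. Endomucin was the only member above 2 FPKM in the in vivo groups, with 34.9, 29.4 and 30.2 FPKM in FL-LSKCD201+ and 30.2, 31.8 and 32.8 FPKM in BM-LSKCD201+. These in vivo groups overlapped and lay between the CD201+ and CD201- cells of the culture. All mESC libraries were at or under 0.109 FPKM.

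The scavenger and hyaluronan receptors were each highest in D5-LSKCD201+ cells. Mrc1 had 37.3, 37.3 and 35.3 FPKM there, against 0.648, 0.903 and 0.464 FPKM in D5-LSKCD201- cells, a difference of 4.50 ± 0.11 (SE, log2, adjusted p = 1.6e-07) and 54.5-fold in the means. In the other sorted groups no library exceeded 1.44 FPKM of Mrc1. Stab1 had 31.4, 33.4 and 33.6 FPKM in D5-LSKCD201+ cells and 0.982, 1.24 and 1.39 FPKM in D5-LSKCD201- cells, a difference of 3.94 ± 0.10 (SE, log2, adjusted p = 1.4e-07) and 27.3-fold in the means. FL-LSKCD201+ libraries had 0.438, 1.07 and 0.663 FPKM of Stab1, overlapping D5-LSKCD201-, and BM-LSKCD201+ libraries had at most 0.0214.

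Lyve1 was lower in level than Mrc1 and Stab1, with 8.84, 6.74 and 8.15 FPKM in D5-LSKCD201+ cells. The D5-LSKCD201- libraries had 0, 0.0855 and 0.0184 FPKM, and the difference was 3.10 ± 0.12 (SE, log2, adjusted p = 7.5e-07). FL-LSKCD201+ cells had 0.182, 0.648 and 0.477 FPKM of Lyve1, above every BM-LSKCD201+ library (0.140, 0 and 0), but the gene did not pass the filter between these groups and was not tested. Stab2 had 2.25, 2.09 and 2.31 FPKM in D5-LSKCD201+ cells and 0.102, 0.0831 and 0.130 in D5-LSKCD201- cells, a difference of 1.54 ± 0.08 (SE, log2, adjusted p = 3.0e-06). FL and BM cells had 0.117 to 0.252 FPKM of Stab2, and their libraries overlapped.

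The lymphatic regulator Prox1 and podoplanin differed from this pattern, unlike Lyve1 and Mrc1, which lymphatic endothelium also makes. Prox1 was at most 0.331 FPKM in every sorted library and was not tested in any of the 6 sorted comparisons. Its means were 0.278 ± 0.0454 in FL-LSKCD201+, 0.260 ± 0.0611 in D5-LSKCD201-, 0.205 ± 0.0226 in D5-LSKCD201+, 0.0571 ± 0.0349 in BM-LSKCD201+ and 0.0384 ± 0.0343 FPKM in mESC (SD, n = 3). FL overlapped D5-LSKCD201-, which overlapped D5-LSKCD201+, and BM overlapped mESC. Hepatoblasts also make Prox1. The summed level of 11 hepatoblast and hepatocyte markers was 578 to 786 FPKM in FL-LSKCD201+, 160 to 176 in D5-LSKCD201+, 107 to 116 in BM-LSKCD201+, 18.5 to 29.0 in D5-LSKCD201- and 8.28 to 10.4 in mESC. In D5-LSKCD201+ cells this sum was mostly Dlk1 (119.7 ± 5.99 FPKM) and Trf (43.7 ± 3.11), which other cell types also make, while Afp stood at 0.462 ± 0.0785 and Alb, named after its values were seen, at 0.0324 ± 0.0361. Between the day 5 groups 6 of these markers were tested, and 2 were called higher in D5-LSKCD201+ cells and 3 lower. Their median was -0.53, and 24.7% of all genes were called. The lower ones averaged under 0.5 FPKM in D5-LSKCD201+ cells. They passed the filter only through D5-LSKCD201- cells, so the filter set the direction of their difference. The BM sum was mostly Trf (91.5 ± 3.20). In FL cells Afp (239.9 ± 45.5) and Alb (68.8 ± 5.38) were both abundant, and the part of hepatoblast RNA in the Prox1 level was not tested.

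Pdpn ran opposite to the 7 members that were higher in D5-LSKCD201+ than in D5-LSKCD201- cells. D5-LSKCD201- cells had 17.2, 17.9 and 18.6 FPKM and D5-LSKCD201+ cells 1.37, 1.97 and 1.58 FPKM, with no overlap. The difference was -2.84 ± 0.11 (SE, log2, adjusted p = 8.2e-07), and the CD201- mean was 10.9 times the CD201+ mean. mESC had 8.92, 9.06 and 7.86 FPKM, between both day 5 groups, and no FL or BM library exceeded 0.188 FPKM. Pluripotency genes were also far lower in D5-LSKCD201+ than in the mESC and D5-LSKCD201- groups, though highest in mESC, with a summed level over 10 markers of 6964 to 7523 FPKM in mESC, 3817 to 4312 in D5-LSKCD201- and 27.4 to 36.2 in D5-LSKCD201+. All 10 were called lower in the CD201+ than in the CD201- cells of the culture, where 1904 of all 13691 genes were called lower. Sox2 (0.172), Nanog (0.425) and Esrrb (0.0887), named after their values were seen, averaged under 0.5 FPKM in D5-LSKCD201+ cells. They passed the filter through D5-LSKCD201- cells alone, which set the direction of their difference. The part of the pluripotency genes in the Pdpn difference was not tested.

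Relative to undifferentiated mESC, which show what the day 5 cells started from, 8 of 9 tested members were called higher in D5-LSKCD201+ cells and Pdpn was called lower. Here 37.6% of 13441 genes were called and 19.5% were called higher, and the median log2 fold change was 3.14 for the members and -0.07 for all genes. All 8 had mESC means under 0.5 FPKM and passed the filter only through D5-LSKCD201+ cells. The filter thus set the direction of their difference, and their count and median are descriptions. The differences were led by Emcn (6.87) and Aplnr (6.72, log2, limma adjusted p = 5.6e-12 for each), followed by Stab1 (4.91) and Mrc1 (4.78). Pdpn fell by 1.87 on the log2 scale (limma adjusted p = 1.6e-07). In D5-LSKCD201- cells 3 of 6 tested members were called higher than in mESC, where 14.3% of 13596 genes were called and 10.9% were called higher. They were Aplnr (3.66, limma adjusted p = 2.3e-06), Apln (2.48) and Emcn (2.36, limma adjusted p = 2.2e-05). Each of the 6 except Pdpn averaged under 0.5 FPKM in mESC and was tested only because of its level in D5-LSKCD201- cells. Pdpn (0.98, limma adjusted p = 6.9e-05) and Stab1 (0.97, limma adjusted p = 0.000289) passed the p threshold with a log2 fold change just under 1, and Mrc1 was not called (0.27, adjusted p = 0.0780). Without D5-LSKCD201- replicate 1 both reached the fold threshold, Pdpn at 1.001 and Stab1 at 1.04. Without mESC replicate 1 Stab1 reached it (1.02), and without mESC replicate 2 Pdpn reached it (1.01). The D5 groups in these comparisons share the mESC libraries.

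Against the in vivo LSKCD201+ cells, the culture's LSKCD201+ cells were higher for each of the 9 members tested. Compared with FL-LSKCD201+ cells, 34.7% of 13627 genes were called and 15.1% were called higher, and the median was 2.64 for the members and -0.16 for all genes. Compared with BM-LSKCD201+ cells, 44.7% of 13775 genes were called and 17.5% were called higher, and the median was 3.08 for the members and -0.23 for all genes. Only Emcn, Mrc1 and, against FL, Stab1 averaged 0.5 FPKM or more in the in vivo group. The other members passed the filter through the D5-LSKCD201+ level alone, so the filter set the direction of their difference. The counts and medians are therefore descriptions. Both comparisons use the same D5-LSKCD201+ libraries.

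Emcn differed least among the most abundant members, with 3.93 times the FL mean (31.5 ± 3.01 FPKM, log2 difference 1.95, limma adjusted p = 1.6e-06) and 3.92 times the BM mean (31.6 ± 1.28 FPKM, log2 difference 1.94, limma adjusted p = 2.7e-08). Mrc1 was higher by 4.28 against FL (0.984 ± 0.469 FPKM) and by 4.22 against BM (1.03 ± 0.349 FPKM), on the log2 scale with limma adjusted p = 1.5e-06 and 5.4e-08. For Stab1 the difference was 4.31 against FL (0.723 ± 0.320 FPKM, limma adjusted p = 4.5e-07) and 5.06 against BM (limma adjusted p = 2.9e-09). The widest differences were those of Aplnr, at 6.70 against FL (limma adjusted p = 2.7e-08) and 6.74 against BM (limma adjusted p = 9.6e-10). Lyve1, Apln, Stab2 and Pdpn differed by 2.64, 2.54, 1.42 and 1.28 against FL and by 3.08, 2.25, 1.42 and 1.37 against BM, and all 8 values had a limma adjusted p of at most 6.6e-05. Nr2f2 was higher by 3.01 against FL (limma adjusted p = 8.4e-07), and against BM no fold is given because every BM library listed it at 0.

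Between FL-LSKCD201+ and BM-LSKCD201+ cells, where 19.1% of 13503 genes were called by limma and 8181 had an unadjusted p under 0.05, 0 of the 2 members tested were called and 0 had an unadjusted p under 0.05. Emcn differed by -0.01 ± 0.10 (SE, log2, adjusted p = 0.957), with a 95% interval from -0.23 to 0.22. Mrc1 differed by -0.05 ± 0.22 (SE, log2, adjusted p = 0.849), with an interval from -0.56 to 0.46. With the replicate block the SEs were 0.10 for Emcn and 0.25 for Mrc1, and neither was called.

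**Figure D2:**
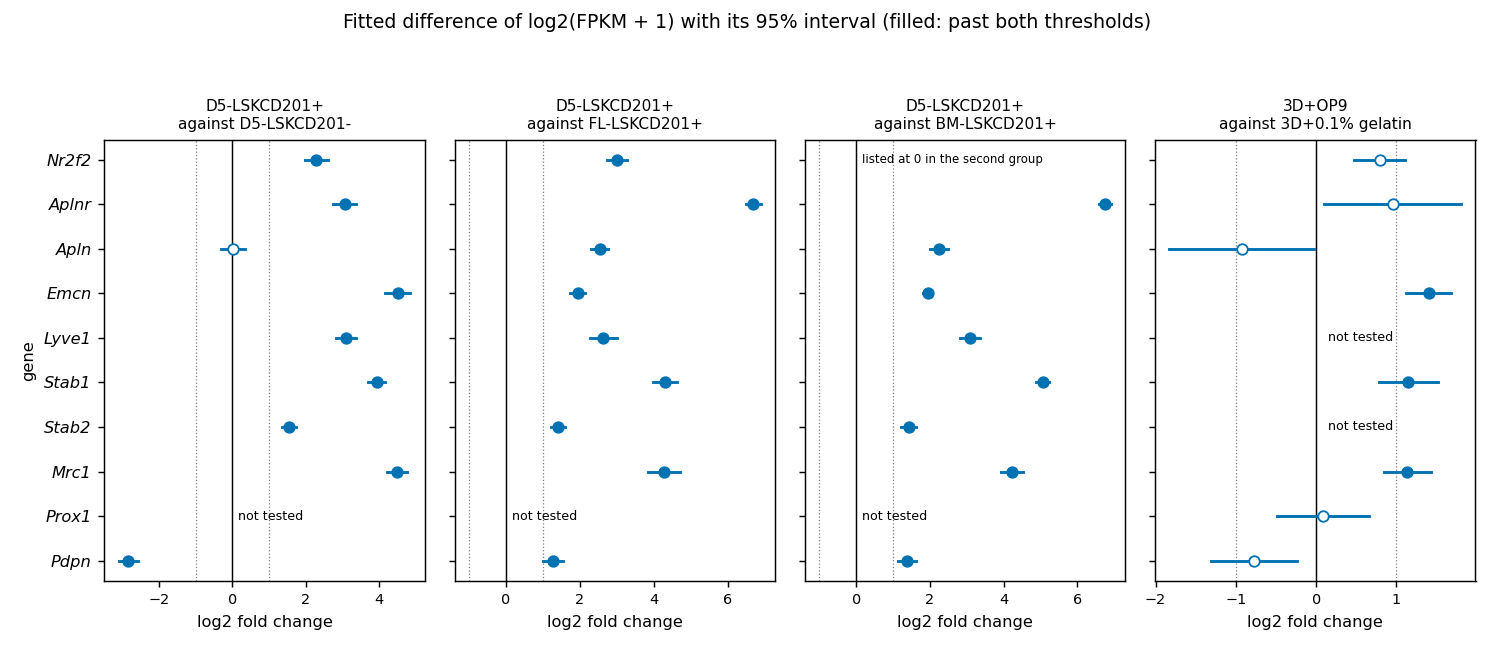
Fitted difference of log2(FPKM + 1) for each member in 4 comparisons, with its 95% interval as a bar. Filled points passed both thresholds, dotted lines mark a log2 fold change of 1 in either direction, and genes under the filter or listed at 0 in the second group carry text in place of a point. Apln lies at 0.00 between the day 5 groups, Pdpn lies at -2.84 there, and Aplnr lies farthest to the right against FL (6.70) and BM (6.74).

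Other endothelial genes were examined with lists of markers. Of 32 further genes of venous, lymphatic and sinusoidal endothelium, 31 were matched in the sorted-cell table and 26 were tested between the day 5 groups. In D5-LSKCD201+ cells 19 were higher and 2 lower, with a median of 1.69. The most abundant of them were Plvap, the diaphragm protein of fenestrated endothelium (1462 ± 11.8 against 41.6 ± 12.0 FPKM, log2 difference 5.15, limma adjusted p = 9.5e-07), and the receptor tyrosine kinase Tie1 (253 ± 8.19 against 6.65 ± 1.57 FPKM, 5.08, limma adjusted p = 2.8e-07). Sox18, a transcription factor upstream of Prox1 in lymphatic development, was at 233 ± 1.15 against 9.57 ± 0.576 FPKM (4.47, limma adjusted p = 3.3e-08), and the endocytic adaptor Dab2 at 146 ± 3.18 against 45.8 ± 1.69 FPKM (1.65, limma adjusted p = 3.4e-07). Both lower genes, named after their values were seen, were Ackr3, a scavenging chemokine receptor (0.765 ± 0.120 against 6.62 ± 0.387 FPKM), and Ltbp4, a matrix protein that binds latent TGF-beta (3.51 ± 0.285 against 13.9 ± 4.18 FPKM). In the remaining sorted comparisons 20 of 25 tested genes of this list were higher and 1 lower in D5-LSKCD201+ cells than in mESC, 18 of 25 higher and 2 lower than in FL-LSKCD201+, and 20 of 25 higher and 1 lower than in BM-LSKCD201+. Of the genes called higher, 11 of 20, 10 of 18 and 11 of 20 averaged under 0.5 FPKM in the second group. These passed the filter only through D5-LSKCD201+ cells, so the filter set the direction of their difference and the counts are descriptions. Over all genes 19.5%, 15.1% and 17.5% were called higher in these comparisons. Against D5-LSKCD201- cells 0 of the 19 higher genes averaged under 0.5 FPKM in the second group, and 10.8% of all genes were called higher.

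Venous, lymphatic and sinusoidal genes were not the only endothelial genes at high levels in D5-LSKCD201+ cells. Of 16 pan-endothelial markers, 16 were called higher than in D5-LSKCD201- cells, with a median of 4.12. Over all genes in this comparison, 10.8% were called higher. Egfl7, a secreted endothelial protein, was at 495 ± 14.0 against 53.8 ± 2.67 FPKM (3.18, limma adjusted p = 4.5e-08). Of 16 arterial genes, 12 were higher and 0 lower, with a median of 1.45. Of these 12, 2 averaged under 0.5 FPKM in D5-LSKCD201- cells. These 2 passed the filter only through D5-LSKCD201+ cells, so the filter set the direction of their difference. Among the 12 higher genes was Gja5, a gap junction protein of arteries (134.9 ± 2.11 against 1.61 ± 0.883 FPKM). Sox17, an arterial transcription factor, was already at 98.5 ± 7.90 FPKM in D5-LSKCD201- cells and 121 ± 6.88 in D5-LSKCD201+ cells. Summed over each list, D5-LSKCD201+ libraries had 3779 to 3925 FPKM of pan-endothelial and 579 to 596 FPKM of arterial genes.

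Markers of other cell types were read beside the members. Blood cell markers, which an LSK sort should hold, summed to 115 to 118 FPKM over 10 genes in D5-LSKCD201+ cells, 40.7 to 42.0 in D5-LSKCD201-, 1487 to 1716 in FL-LSKCD201+ and 1937 to 2181 in BM-LSKCD201+. Ptprc, which encodes the leukocyte antigen CD45 and was named after its values were seen, averaged 0.409 ± 0.167 FPKM in the CD201+ and 0.633 ± 0.269 in the CD201- cells of day 5, against 43.5 ± 7.54 in FL and 66.8 ± 4.21 in BM cells. Cdh5 (VE-cadherin), a defining gene of endothelium, had 70.8 ± 3.02 FPKM in D5-LSKCD201+, 2.31 ± 0.205 in D5-LSKCD201-, 1.13 ± 0.441 in FL and 0.0359 ± 0.0328 in BM cells. The 16 pan-endothelial markers as a list were not absent in vivo, with sums of 599 to 632 FPKM in FL and 427 to 469 in BM cells. The largest part of both sums was Egfl7, at 286 ± 3.12 FPKM in FL and 202 ± 20.5 in BM cells. Between the day 5 groups 24.7% of all genes were called and 10.8% were called higher. The other blood cell markers did not move as one there, with 4 of 10 called higher in D5-LSKCD201+ cells, 3 lower and 3, Ptprc among them, not called. The higher ones were Itga2b (CD41, 45.2 ± 0.641 against 3.78 ± 0.239 FPKM), an integrin of early blood progenitors and megakaryocytes, the tetraspanin gene Cd53 (22.4 ± 0.548 against 0.893 ± 0.395), Laptm5 (19.2 ± 1.2 against 8.84 ± 2.11) and the transcription factor gene Spi1 (13.0 ± 0.590 against 5.90 ± 0.443). Itga2b was also above its level in FL (8.5 ± 0.226) and BM (11.6 ± 0.272) cells. The lower ones were the transcription factor genes Myb (0.448 ± 0.0447 against 3.32 ± 0.377), Runx1 (1.80 ± 0.353 against 5.39 ± 0.899) and Gfi1b (0.663 ± 0.331 against 2.71 ± 0.995). Myb, under 0.5 FPKM in D5-LSKCD201+ cells, passed the filter only through D5-LSKCD201- cells, so the filter set the direction of its difference. Itga2b, Myb, Runx1 and Gfi1b were named after their values were seen, and the part of blood cells in the members' levels was not tested.

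Mrc1, Lyve1 and Stab1 are shared with tissue macrophages, so 17 macrophage markers were summed. D5-LSKCD201+ cells had the lowest sum of the 5 sorted groups, 5.75 to 6.15 FPKM, and 7 of the 17 genes (C1qa, Cd163, Cd5l, Fcgr1, Marco, Timd4 and Vsig4) were listed at 0 in all 3 libraries. Adgre1 (F4/80) had a mean of 0.0210 FPKM there. The sums were 759 to 802 FPKM in FL-LSKCD201+, 470 to 511 in BM-LSKCD201+, 16.3 to 18.2 in D5-LSKCD201- and 11.3 to 12.8 in mESC, and Lyz2, with 568 ± 39.7 FPKM in FL and 377 ± 15.1 in BM, made up most of the in vivo sums. The markers with the highest levels in D5-LSKCD201+ cells were Cd68 (2.16 ± 0.203 FPKM), Lyz2 (1.92 ± 0.111) and Csf1r (0.801 ± 0.0436), the last named after its values were seen. D5-LSKCD201- cells had 12.6 ± 0.715 FPKM of Cd68, 1.97 ± 0.657 of Lyz2 and 0.744 ± 0.0772 of Csf1r. C1qb was at 0.363 ± 0.0986 FPKM in CD201+ and 0.126 ± 0.0601 in CD201- cells. The part of macrophage RNA in the Mrc1, Stab1 and Lyve1 levels was not tested. Mesenchymal stromal markers were read because OP9 cells were in the culture. They summed over 14 genes to 129 to 138 FPKM in D5-LSKCD201+ cells against 55.7 to 86.8 in D5-LSKCD201- cells, with the lowest sum in D5-LSKCD201- replicate 2. Of 13 tested, 4 were called higher in D5-LSKCD201+ cells (Pparg, Postn, Lpl and Lum), 1 was called lower (Pdgfra, 0.676 ± 0.0307 against 2.61 ± 0.433 FPKM) and 8 were not called, among them the most abundant, Col1a1 (29.8 ± 1.21 against 19.5 ± 9.996 FPKM). The 5 called were named after their values were seen, and over all genes 24.7% were called and 10.8% were called higher. Of the 4 higher, Lum averaged 0.108 ± 0.0361 FPKM in D5-LSKCD201- cells. It passed the filter only through D5-LSKCD201+ cells, so the filter set the direction of its difference. The part of stromal RNA in the differences between the day 5 groups was not tested.

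**Figure D3:**
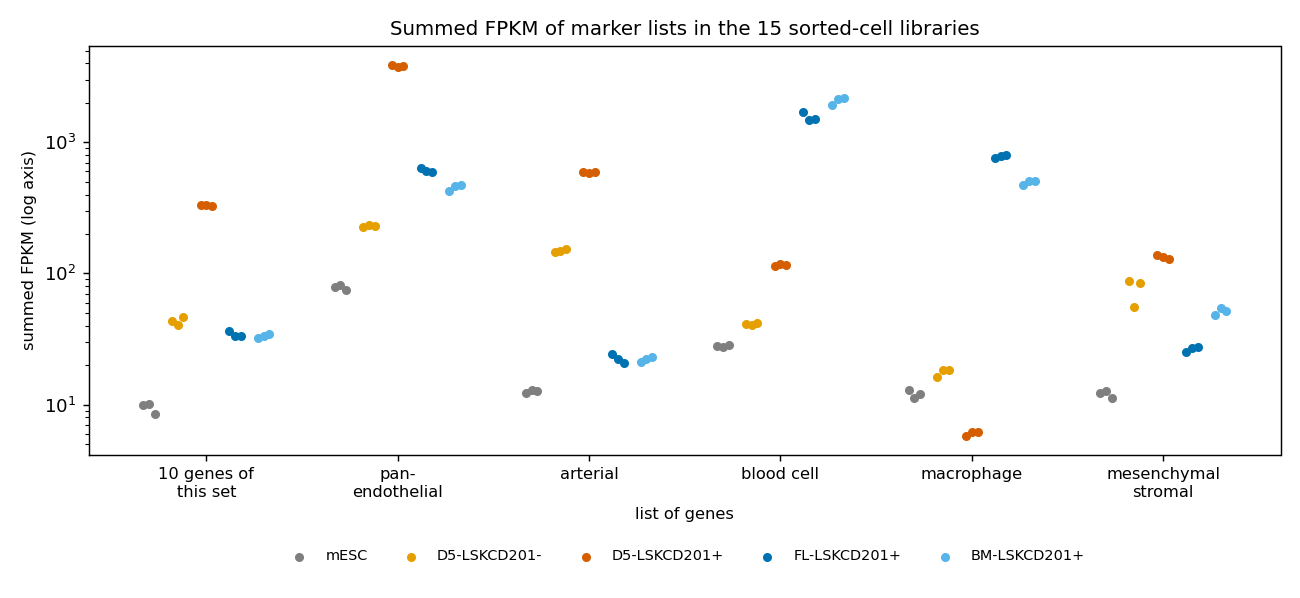
Summed FPKM of 6 gene lists in the 15 sorted-cell libraries on a log axis, 1 point per library, coloured by group. D5-LSKCD201+ points are highest for the 10 members (328 to 332), pan-endothelial (3779 to 3925), arterial and stromal lists, lowest for macrophage markers (5.75 to 6.15), and far below FL and BM for blood cell markers.

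Genes whose pattern was most like a member's were found by the root-mean-square difference of centred log2(FPKM + 1) over the 15 sorted libraries among the 14457 genes that averaged 0.5 FPKM or more. The libraries fall into 5 groups, so likeness mostly reflects the group means. Nearest to Nr2f2 were Adam12 (0.141), BC037039 (0.158) and Hrct1 (0.165), and Adam12 had 7.26 ± 0.460 FPKM in D5-LSKCD201+ cells and 0.620 ± 0.134 in D5-LSKCD201- cells. Nearest to Aplnr were Cdc42ep1 (0.394), the arterial list's Nrp1 (0.485) and Asb4 (0.506). Nrp1, a semaphorin and VEGF co-receptor, had 90.3 ± 0.657 FPKM in D5-LSKCD201+ cells against 16.1 ± 0.283 in D5-LSKCD201- cells. Apln was followed most closely by Stard8 (0.198), Rbms3 (0.283) and Fzd1 (0.285).

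For Emcn the nearest genes were Gng11 (0.415), Afap1l1 (0.427) and Tie1 (0.486). Gng11, a G protein gamma subunit, shared the high level in D5-LSKCD201+ cells (257 ± 2.93 FPKM) with a middle level in FL (66.6 ± 23.0) and BM (107 ± 9.16). Stab1 was nearest to Nts (0.208), Lama4 (0.289) and She (0.295), and Mrc1 to Gpihbp1 (0.335), Nts (0.421) and Pcdh12 (0.434). Nts, the gene of the peptide neurotensin, appeared beside both scavenger receptors, with 27.9 ± 3.18 FPKM in D5-LSKCD201+ cells against 0.902 ± 0.268 in D5-LSKCD201- cells. Among the genes most like Lyve1 were Zfp69 (0.176) and Apold1 (0.229), and Stab2 was nearest to Tmem44 (0.0978), Kcnj8 (0.110) and Snx9 (0.153). Pdpn was nearest to Mgarp (0.297), Crabp2 (0.303) and Zfp428 (0.310), with Mgarp at 21.5 ± 1.81 FPKM in D5-LSKCD201-, 14.8 ± 0.878 in mESC and 3.60 ± 0.654 in D5-LSKCD201+ cells. Prox1 was under the level filter and was not compared.

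In total day 5 cells, the comparison of 3D+OP9 with 3D+0.1% gelatin asks what the stromal layer changed. Emcn, Stab1 and Mrc1 were called higher on OP9, 3 of 8 members tested, in a comparison where 2.62% of 12958 genes were called and 2.11% were called higher. These 2.62% were 339 genes, and without gelatin replicate 2 the number was 209, with the same 3 members among them. No member was called lower, and the median log2 fold change was 0.87 for the 8 members and 0.01 for all genes. Emcn, Stab1, Mrc1 and Nr2f2 passed the filter only through their level on OP9, with gelatin means under 0.5 FPKM. The filter thus set the direction of their difference, though not a call, and Nr2f2 was not called. The count and median are descriptions. Levels of these genes on OP9 were a few FPKM at most. Levels in this table are not set beside those of the sorted cells, because the tables were normalized separately.

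Emcn had 1.45, 1.84 and 1.86 FPKM on OP9 and 0, 0.04 and 0.04 FPKM on gelatin, a difference of 1.40 ± 0.12 (SE, log2, adjusted p = 0.00137). Stab1 had 1.61, 1.97 and 1.03 FPKM on OP9 and 0.14, 0.11 and 0.14 FPKM on gelatin, a difference of 1.15 ± 0.16 (SE, log2, adjusted p = 0.00738). Mrc1 had 1.21, 1.66 and 1.66 FPKM on OP9 and 0.17, 0.13 and 0.12 FPKM on gelatin, a difference of 1.13 ± 0.12 (SE, log2, adjusted p = 0.00313). In each of these genes every OP9 library was above every gelatin library, which is a description, since each passed the filter only through OP9. After quantile normalization Stab1 (0.997, limma adjusted p = 0.0219) and Mrc1 (0.98, limma adjusted p = 0.00545) fell just under the fold threshold. All 3 genes stood above 0.5 but under 1 FPKM on average over the 6 libraries, so a filter at a mean of 1 FPKM left them out.

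Nr2f2 had 1.3, 1.5 and 1.5 FPKM on OP9 and 0.38, 0.62 and 0.24 FPKM on gelatin. Its difference of 0.79 ± 0.14 (SE, log2, adjusted p = 0.0162) passed the p threshold but not the fold threshold, and with a pseudocount of 0.1 FPKM it passed both (1.64, limma adjusted p = 0.0238). Lyve1 (0.39, 0.35 and 0.69 against 0.02, 0 and 0 FPKM) and Stab2 (0.10, 0.08 and 0.07 against 0.02, 0 and 0.01 FPKM) did not overlap between cultures but were under the filter and were not tested.

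The apelin pair pointed in opposite directions with wide spread. Aplnr had 23.63, 22.03 and 8.16 FPKM on OP9 and 9.97, 7.35 and 6.82 FPKM on gelatin, so that OP9 replicate 3 lay within the gelatin range. The difference was 0.95 ± 0.36 (SE, log2, adjusted p = 0.173), and without that library it was 1.41 (limma adjusted p = 0.00189). Apln had 14.47, 13.69 and 4.56 FPKM on OP9 and 20.79, 23.86 and 15.08 FPKM on gelatin, a difference of -0.93 ± 0.39 (SE, log2, adjusted p = 0.207). Its libraries did not overlap, and without OP9 replicate 3 the difference was -0.45 (limma adjusted p = 0.137).

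Pdpn had 17.64, 14.59 and 28.86 FPKM on OP9 and 29.97, 39.35 and 33.57 FPKM on gelatin, a difference of -0.77 ± 0.23 (SE, log2, adjusted p = 0.0987). Without OP9 replicate 3 it was -1.04 (limma adjusted p = 0.00355), which passed both thresholds. The lymphatic regulator Prox1 was measurable in total cells, with 2.97, 2.66 and 1.3 FPKM on OP9 and 2.84, 1.94 and 1.49 FPKM on gelatin. These libraries overlapped, and the difference was 0.08 ± 0.25 (SE, log2, adjusted p = 0.881), with a 95% interval from -0.49 to 0.66. Without OP9 replicate 3 it was 0.33 (limma adjusted p = 0.293).

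**Figure D4:**
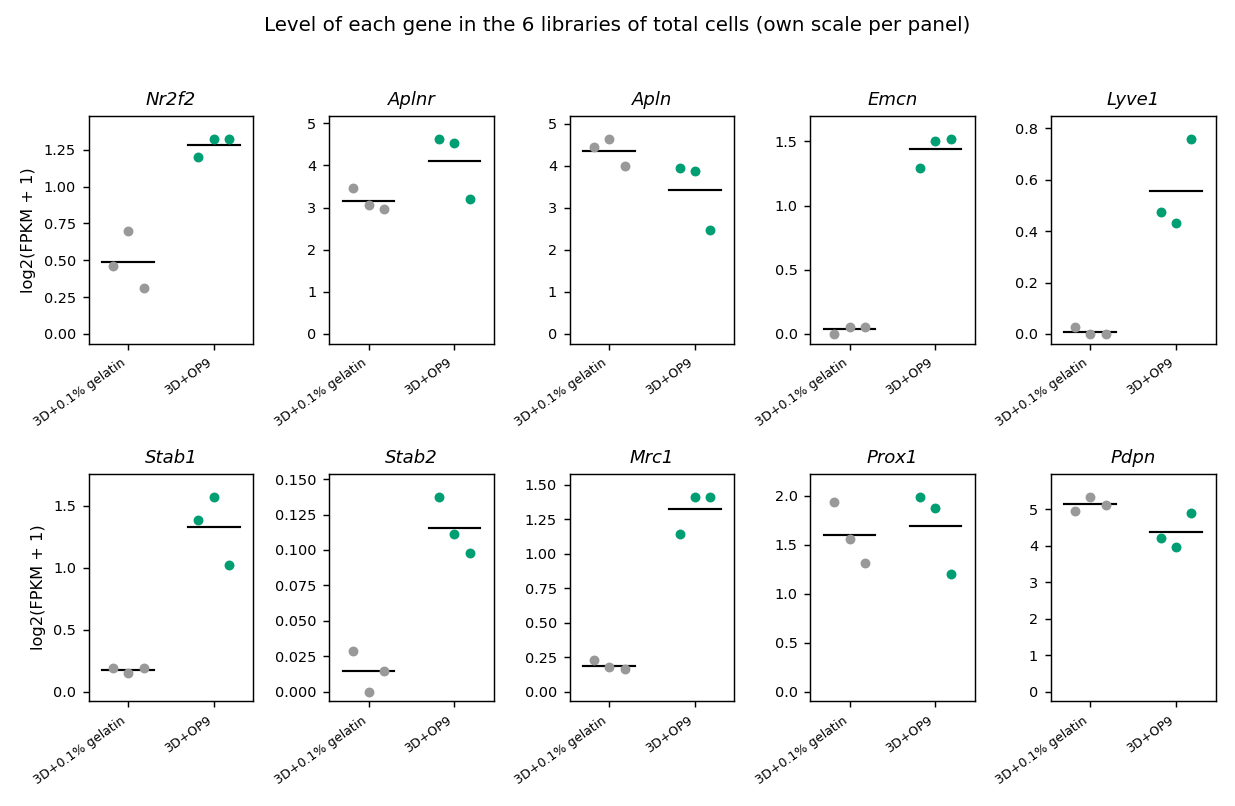
Levels of the 10 members in the 6 libraries of total day 5 cells, 1 panel per gene. The vertical axis is log2(FPKM + 1) with its own scale in each panel, points are libraries in the order of replicate number and lines are means of 3. OP9 and gelatin points overlap for Aplnr and Prox1, and OP9 replicate 3 lies apart from the other OP9 libraries for Aplnr, Apln, Prox1 and Pdpn.

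Of the 32 further venous, lymphatic and sinusoidal genes, 24 were tested between the cultures and 5 were called higher on OP9. The 4 most abundant in these libraries, Nrp2, Ephb4, Rspo3 and Bmp2, were not among them. Ephb4, the receptor that marks veins, was at 22.0 ± 3.37 FPKM on OP9 and 18.3 ± 1.31 on gelatin (log2 difference 0.24, limma adjusted p = 0.298). The 5 called, named after their values were seen, were Tie1 (9.78 ± 0.937 against 0.440 ± 0.346 FPKM), Plvap (17.96 ± 3.44 against 2.96 ± 0.428), Sox18 (6.04 ± 1.22 against 0.580 ± 0.288), the lymphatic VEGF receptor Flt4 (5.67 ± 0.560 against 1.93 ± 0.335) and Oit3 (3.75 ± 0.609 against 0.0833 ± 0.0751). Pan-endothelial markers were called higher in 11 of 15 tested genes, with Cdh5 at 28.5 ± 3.38 against 1.73 ± 0.965 FPKM (3.49, limma adjusted p = 0.000726), and arterial genes in 2 of 13. On gelatin 2 of the 5 venous, lymphatic and sinusoidal genes called higher, 3 of the 11 pan-endothelial and 1 of the 2 arterial ones averaged under 0.5 FPKM and passed the filter only through OP9, and 2.11% of all genes were called higher.

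Stromal markers summed to 85.1 to 94.6 FPKM on OP9 and 52.1 to 64.0 on gelatin, with 4 of 13 tested genes called higher on OP9, of which 2 averaged under 0.5 FPKM on gelatin. Blood cell markers summed to 28.2 to 38.3 and 10.7 to 12.0 FPKM, with 5 of 7 tested called higher on OP9, of which 4 averaged under 0.5 FPKM on gelatin. Pluripotency markers summed to 1323 to 1400 FPKM on gelatin and to 913, 906 and 1746 FPKM on OP9, so that OP9 replicates 1 and 2 lay below and OP9 replicate 3 above every gelatin library. Of the 10, 3 were called higher on OP9 (Zfp42, Esrrb and Fbxo15, named after their values were seen) and 0 lower. Over all genes between these cultures, 2.62% were called and 2.11% were called higher. Macrophage markers summed to 12.7 to 18.5 FPKM on OP9 and 9.05 to 18.5 on gelatin, with 4 of 16 (Adgre1, C1qa, C1qc and Timd4) at 0 in every library of both groups. The part of the stromal cells in the Emcn, Stab1 and Mrc1 differences was not tested.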

How the data were processed

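TRIzol was used for RNA extraction and a VAHTS mRNA-seq v2 kit for the libraries, which were run on an Illumina HiSeq X instrument. HISAT2 2.0.5, StringTie 1.3.3 and Cuffdiff 1.3.0 appear in the submitters' processing notes with GRCm38, and mm9 is also listed without a role. The deposited values are FPKM that the authors computed per gene and library, in separately normalized tables for sorted and total cells, and no test crossed tables. Counts were not used, so the depth behind a value is unknown and no counting interval is given. FPKM summed to 483263 to 620332 per library, and no housekeeping gene was at 0. Values were blank in every library for 3578 genes of the total cells. Of the sorted-cell identifiers, 27828 (99.5%) were in GENCODE M21.

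Tests used limma 3.58.1 in R 4.3.3 (trend, two-sided) on log2(FPKM + 1), for genes averaging 0.5 FPKM or more in the 6 libraries compared. Benjamini-Hochberg adjustment covered all tested genes of a comparison, 7 comparisons in all. Calls needed adjusted p below 0.05 and a log2 fold change of 1 or more in either direction. The smallest exact two-sided permutation p of 3 against 3 libraries is 0.1. The fit was tested on simulated data, and no result of that test is given here. Fold changes on this scale understate those of low genes, and ratios of means are of FPKM. Plots were made with matplotlib 3.10.9 under Python 3.11.15.

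Members and marker lists were chosen with earlier results of these data known. The rule for named genes took all members, up to 4 genes of each other list with the highest level in a table, and the 3 genes most like each member, of which 1 is not reported here. Others are said to be named after their values were seen. Medians of the 10 housekeeping genes lay between -0.21 and 0.37 (log2) in the sorted comparisons of the day 5 cells. Between FL and BM the deviations of same-numbered libraries correlated at 0.242, 0.202 and 0.159, so the numbers may pair them, on the evidence of the data alone. The values given are from the fit without the block, as in the other comparisons. Alternatives were a pseudocount of 0.1, no filter, a filter at 1 FPKM, quantile normalization, a replicate block, the adjusted p alone, one fit over the 5 sorted groups, leaving out each library and, added after seeing the data, averaging the closest pair of replicates in 4 groups.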

Additional observations from a re-analysis of the deposited data

How the results depend on the processing

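The members called between D5-LSKCD201+ cells and each other sorted group kept their direction and their call under every alternative that tested them. A filter at 1 FPKM left Pdpn untested against FL and against BM, so its call there was not kept. Of the values fitted, 124 of 126 were on the same side and in the same direction against D5-LSKCD201- cells. So were 117 of 117 against mESC, 125 of 125 against FL and 125 of 125 against BM. The exceptions, against D5-LSKCD201- cells, were Apln, which was not called in any fit and ranged from -0.13 to 0.10 when each library was left out. With the adjusted p alone, the genes called numbered 9349 between the day 5 groups, 11496 for D5-LSKCD201+ against mESC, 7418 for D5-LSKCD201- against mESC, 9823 against FL, 11486 against BM, 7446 between FL and BM and 891 between OP9 and gelatin. Between OP9 and gelatin, 531 genes were called with a pseudocount of 0.1, and 209 to 444 when each library was left out, with the lowest number without gelatin replicate 2. The 3 members called there became 0 with a filter at 1 FPKM, which removes all 3 genes, 1 with quantile normalization and 3 to 5 when each library was left out, with 5 without OP9 replicate 3. Prox1 changed sign, at -0.034 with quantile normalization, -0.038 with the closest pair averaged and -0.068 to 0.33 when each library was left out. The 3 members called between D5-LSKCD201- cells and mESC became 5 with a pseudocount of 0.1, 5 with the adjusted p alone and 3 to 5 when each library was left out, and Mrc1 changed sign with quantile normalization (-0.0084). Between FL and BM, Emcn was 0.10 with quantile normalization, 0.045 with the closest pair averaged and -0.082 to 0.040 when each library was left out, and Mrc1 was 0.032 with quantile normalization and -0.17 to 0.16 when each library was left out. These values were not called in any fit, and the cause of the changes was not tested beyond the filter.

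The replicate block changed no member's call in any comparison. With the replicate block, 379 genes were called between OP9 and gelatin in place of 339, and 2607 between FL and BM in place of 2581. Same-numbered OP9 and gelatin libraries correlated at 0.182, 0.0724 and 0.291, and in the 5 other comparisons the correlations ran from -0.197 to 0.102, so those numbers were taken as names only. The unknown depth limits what can be said of members under about 0.5 FPKM, among them Prox1 in sorted cells and Lyve1 and Stab2 in total cells.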
